A study of Mus musculus with 8 samples.

Results

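The nuclear-encoded subunits of respiratory complexes II, III and IV, cytochrome c and the ATP synthase (complex V) were examined in RNA of femoral growth plate cartilage from mice at 12 days of age. The list held 37 genes, 4 of complex II, 9 of complex III, 8 of complex IV, 15 of complex V and Cycs, and was drawn up by function, with earlier results of these data known. A gene was taken as measured where a probe carried a RefSeq transcript of it as its name in the scanner files and was detected above background on 4 or more of the 8 arrays. By this rule 36 genes were measured, with 50 probes, among 23105 features tested in all. No probe was named by a RefSeq transcript of Cox5b, so Cox5b was not analysed here. All 50 probes were well above background on all 8 arrays, so the filter removed no member.

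The samples were 4 CreTW mice and 4 littermates labelled Cre, 1 array of 100 ng of RNA for each mouse. The labels give these 2 genotype names and do not spell out the alleles. As background on this study, both groups carry a Cre recombinase driven by the type II collagen promoter, which acts in cartilage, and the CreTW mice carry in addition a Cre-activated mutant form of Twinkle, the helicase that unwinds mitochondrial DNA for replication. The control mice therefore share the Cre transgene, and cells in the dissected tissue that are not chondrocytes may lack the mutant helicase in both groups. The title of the series names the loss of the respiratory chain in growth cartilage as its subject.

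The respiratory chain passes electrons to oxygen and pumps protons across the inner mitochondrial membrane, and the ATP synthase uses the return of those protons to make ATP. Complex II is encoded in the nucleus alone, whereas complexes III, IV and V join nuclear subunits to core subunits encoded in mitochondrial DNA. The nuclear genes are known to be transcribed under the control of factors such as NRF1, GABP (an ETS factor, also called NRF2) and YY1, and the cell has to match the supply from both genomes.

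Levels below are log2 of the background-subtracted intensity minus the array's 75th percentile, and a difference is the mean of 4 CreTW arrays minus the mean of 4 Cre arrays, with its SE. On this scale a change common to most RNAs of an array would not appear, and in a bulk sample fewer cells of a type and less RNA per cell cannot be told apart. Levels of different probes are not compared with one another. The share of 56605 probes well above background ran from 45.4% (CreTW array 2) to 57.9% (CreTW array 4), with no saturated spot. The mean correlation was 0.986 between arrays of the same genotype (lowest 0.981) and 0.982 between genotypes (lowest 0.972). All 18 listed chondrocyte markers were well above background on all 8 arrays. Their mean level, each marker centred on its 8 arrays, lay between -0.42 and 0.13 on CreTW arrays and between -0.32 and 0.60 on Cre arrays. The median difference of these markers was -0.15. The Twnk probe ranged from -2.64 to -1.85 on CreTW arrays and from -2.28 to -1.85 on Cre arrays (difference -0.10 ± 0.21). Whether that probe reads the transgene is not known, so it checks no label. Nothing in the labels says that the mice come from different litters, so p-values measure the spread between these 8 mice.

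Short promoter stretches are shown first because they carry motifs of the factors named above, each found in a minority of the genes. In the RefSeq promoter windows (build GRCm38.p6, 250 bases before to 50 after each gene's start), 30 of the 37 listed genes had an entry. Sdhc, Uqcrc2, Cyc1, Uqcrb, Uqcrq, Cox6c and Atp5a1 had none. The NRF1 motif, a near-palindrome with 1 free base that appears in capitals below, was searched on both strands and counted once where it read the same on both. It lay in the windows of 9 of these 30 genes (30%), against 5.19% of 27025 genes with a window. These 9 were Sdha, Sdhd, Uqcrc1, Atp5c1, Atp5g2, Atp5g3, Atp5h, Atp5k and Atp5o. The ETS motif CCGGAAGT lay in 3 of 30 (Uqcrh, Uqcr11 and Atp5h), against 4.31% of all genes, and a YY1 motif in 1 of 30 (Atp5j), against 0.995%. The members' windows were richer in G and C, with a median of 57% against 52.7% over all windows, which was not adjusted for. A match of letters is a description and not a binding site. The stretches end at the gene's start or 30 bases past the last motif, run 5′ to 3′ in the direction of the gene, and carry the motif in capitals. Sdha, whose window held 3 NRF1 motifs, and Sdhd, with the most negative difference of complex II, lie at chr13:74350241-74350368 and chr9:50603889-50603958, both on the minus strand.
Sdha: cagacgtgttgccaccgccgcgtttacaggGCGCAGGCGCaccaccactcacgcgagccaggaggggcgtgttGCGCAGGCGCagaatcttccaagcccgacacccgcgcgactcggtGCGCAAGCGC
Sdhd: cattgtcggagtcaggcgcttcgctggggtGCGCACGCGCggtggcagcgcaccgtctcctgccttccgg
Atp5g2, one of 3 genes of ATP synthase subunit c, and Atp5k, the subunit e gene, carry the palindromic form of the NRF1 motif at chr15:102671050-102671119 and chr5:108434410-108434479, both on the minus strand.
Atp5g2: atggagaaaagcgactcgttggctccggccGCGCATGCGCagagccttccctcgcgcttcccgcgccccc
Atp5k: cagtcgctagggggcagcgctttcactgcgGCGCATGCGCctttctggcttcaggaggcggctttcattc
Uqcr11, a small subunit gene of complex III, carries the ETS motif at chr10:80406850-80406917 on the minus strand.
Uqcr11: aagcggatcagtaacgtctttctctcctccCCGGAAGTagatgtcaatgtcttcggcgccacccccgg

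The fitted differences of these subunits between the genotypes were small. None of the 36 measured genes passed the test at adjusted p 0.05 (limma, Benjamini-Hochberg adjustment over 23105 features), against 0.346% of all features (0.229% higher and 0.117% lower in CreTW). An unadjusted p under 0.05 was found for 2 of 36, 1 higher and 1 lower in CreTW, against 10.7% of all features (5.93% higher and 4.80% lower). Differences ran from -0.22 (Sdhd) to 0.24 (Cox7a2l), 16 were positive and 20 negative, and their median was -0.01, as was the median of all features. Each of the 36 intervals of 95% lay within a 1.5-fold change either way. The lowest lower bound was -0.41 on the log2 scale (0.754-fold, Sdhd) and the highest upper bound 0.42 (1.34-fold, Cox7a2l). These are intervals of single genes and are not widened for the number of genes. The median SE was 0.09 for the members and 0.13 for all features. Of all 23105 features, 15882 had their whole interval within a 1.5-fold change either way, which depends on the difference as well as on the width. In 3 of 36 genes (8.33%) the 4 CreTW values lay all on one side of the 4 Cre values, 1 higher and 2 lower in CreTW, against 6.70% of all features (3.89% higher and 2.81% lower). These shares are near those of all features.

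**Figure D1:**
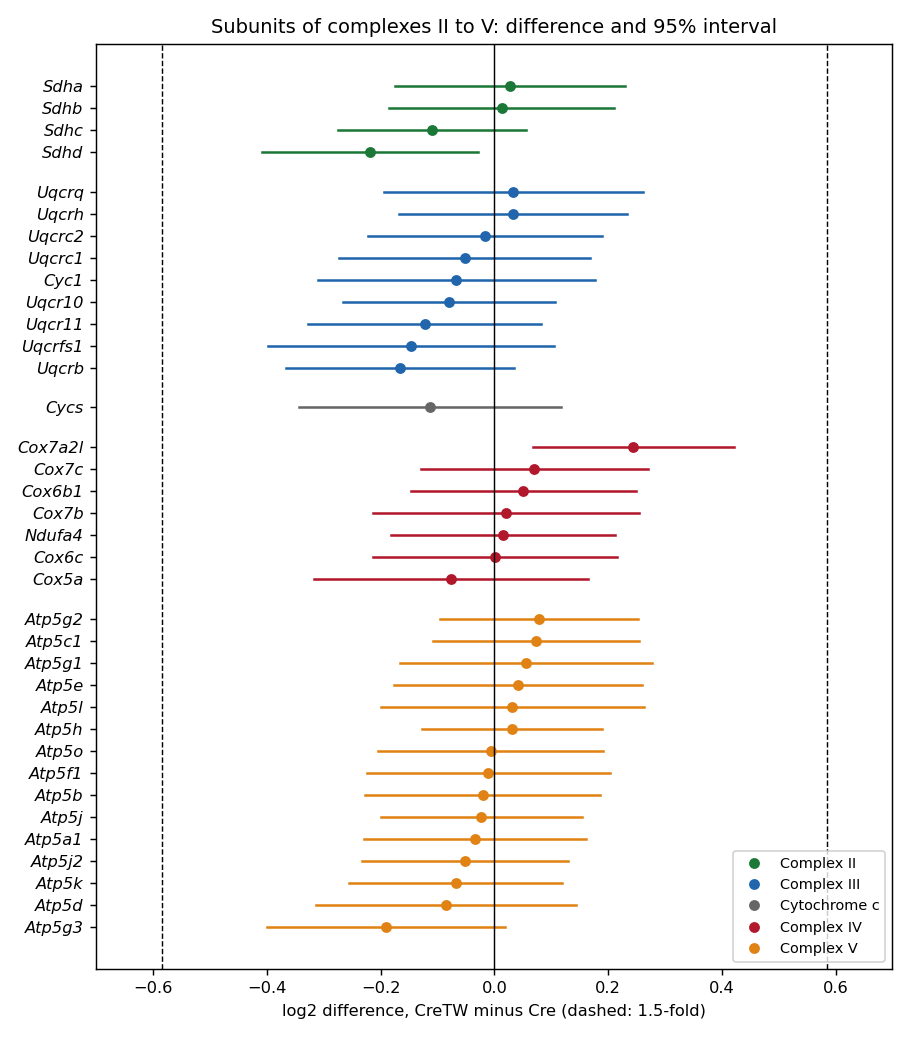
Difference in log2 level between CreTW and Cre cartilage (x axis, CreTW minus Cre) for each of the 36 measured subunit genes, grouped by complex and coloured as in the legend, with points for the fitted difference and lines for its 95% interval. All intervals lie between the dashed lines at a 1.5-fold change; the interval of Sdhd lies below 0 and that of Cox7a2l above 0, before any adjustment for the number of genes.

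Complex II oxidises succinate in the tricarboxylic acid cycle and passes the electrons to ubiquinone. Its 2 catalytic subunits are the flavoprotein Sdha and the iron-sulfur protein Sdhb, and Sdhc and Sdhd anchor them in the membrane and bind haem. Sdha had levels of 3.55, 3.50, 3.74 and 3.61 on CreTW arrays 1 to 4, against 3.62, 3.63, 3.61 and 3.43 on Cre arrays 1 to 4, a difference of 0.03 ± 0.09 (adjusted p = 0.934). The groups overlapped. Sdhb differed by 0.01 ± 0.09, also with overlapping groups. Sdhd had levels of 3.90, 3.79, 3.77 and 3.97 on CreTW arrays, against 4.12, 4.11, 3.97 and 4.09 on Cre arrays. All CreTW values of Sdhd were below all Cre values, though CreTW array 4 and Cre array 3, the nearest pair, are equal at 2 decimals. The difference of Sdhd was -0.22 ± 0.08 (95% interval -0.41 to -0.03, 0.860-fold), with an unadjusted p of 0.0288 and an adjusted p of 0.407. Sdhc had levels of 3.17, 3.18, 3.14 and 3.22 on CreTW arrays, against 3.37, 3.27, 3.29 and 3.23 on Cre arrays. Its groups were also separated, with a difference of -0.11 ± 0.07 (95% interval -0.27 to 0.06, adjusted p = 0.620). With the probes used, both membrane anchors had their CreTW values below their Cre values, as 2.81% of all features did. Neither difference of an anchor passed the test over all features. Sdhc and Sdhd had 1 probe each. A second, dimmer Sdha probe was at -0.13 ± 0.15 and a second Sdhb probe at -0.01 ± 0.10, neither separated by genotype. The contrast between the anchors and Sdha in size of difference therefore depended on the Sdha probe.

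Complex III passes electrons from ubiquinol to cytochrome c. Of its 9 measured subunits 7 had a negative difference and 2 a positive one, with a median of -0.07, none was separated by genotype and none had an unadjusted p under 0.05. Cytochrome c1 (Cyc1) differed by -0.07 ± 0.11 and the Rieske iron-sulfur protein (Uqcrfs1) by -0.15 ± 0.11. The most negative difference of complex III was that of the small subunit Uqcrb. Uqcrb had levels of 4.89, 4.74, 4.72 and 4.95 on CreTW arrays, against 4.98, 5.09, 4.91 and 4.99 on Cre arrays. CreTW arrays 1, 2 and 3 lay below every Cre array and CreTW array 4 lay among them, and the difference was -0.17 ± 0.09 (95% interval -0.37 to 0.03, adjusted p = 0.548). A second, dimmer Uqcrb probe went the other way, at 0.06 ± 0.09, so the direction of Uqcrb depended on the probe. The core proteins Uqcrc1 and Uqcrc2 differed by -0.05 ± 0.10 and -0.02 ± 0.09. Among the other small subunits, Uqcr10 and Uqcr11 were at -0.08 ± 0.08 and -0.12 ± 0.09, and the hinge protein Uqcrh was at 0.03 ± 0.09. Uqcrq, with the largest positive difference of complex III, had levels of 6.78, 6.57, 6.59 and 6.70 on CreTW arrays, against 6.62, 6.74, 6.43 and 6.72 on Cre arrays (0.03 ± 0.10, adjusted p = 0.929). These values interleave.

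Cytochrome c (Cycs) carries electrons from complex III to complex IV and, when released from mitochondria, starts the caspase cascade. Its levels were 4.62, 4.37, 4.68 and 4.58 on CreTW arrays, against 4.71, 4.83, 4.62 and 4.55 on Cre arrays. The groups overlapped, with CreTW array 2 the lowest and Cre array 2 the highest, and the difference was -0.11 ± 0.10 (adjusted p = 0.705). A second probe gave -0.08. Cycs is known to have many processed copies in the mouse genome, so its probes are uncertain for a single gene.

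Complex IV reduces oxygen to water on a core encoded in mitochondrial DNA, around which nuclear subunits are arranged. Of its 7 measured members 6 had a positive difference and 1 a negative one, with a median of 0.02. Cox7a2l, also called SCAF1, joins complex III to complex IV in supercomplexes. Cox7a2l had levels of 6.05, 5.90, 5.98 and 5.91 on CreTW arrays, against 5.78, 5.68, 5.64 and 5.76 on Cre arrays. All CreTW values of Cox7a2l were above all Cre values, and its difference of 0.24 ± 0.08 (95% interval 0.07 to 0.42, 1.18-fold) was the largest of the 36 in size. Its unadjusted p was 0.0126 and its adjusted p 0.320, so it did not pass over all features. The difference of Cox7a2l was 0.24 within slide row 1 and 0.25 within row 2.

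The other complex IV members lay closer to 0. Cox5a, which sits on the matrix side, had levels of 5.38, 5.32, 5.55 and 5.47 on CreTW arrays, against 5.63, 5.65, 5.46 and 5.30 on Cre arrays (-0.08 ± 0.11, adjusted p = 0.817). The Cre values of Cox5a spanned the wider range, and the groups overlapped. Cox7c, Cox6b1 and Cox7b were at 0.07 ± 0.09, 0.05 ± 0.09 and 0.02 ± 0.10. Ndufa4, once counted among complex I subunits and now placed in complex IV, was at 0.01 ± 0.09, and Cox6c at 0.00087 ± 0.094. Complex IV also has subunits with muscle forms that were not on the member list. Of 10 measured subunits outside the list, Cox6a2, a form of heart and skeletal muscle, alone passed the test, with its probe well above background on 4 of 4 CreTW and 3 of 4 Cre arrays. Cox6a2 had levels of 0.92, 2.98, 2.57 and 2.13 on CreTW arrays, against -2.44, -3.14, -0.59 and -3.05 on Cre arrays (4.45 ± 0.63, adjusted p = 0.0271). All its CreTW values were higher, with array 1 the lowest of them and Cre array 3 the highest of the others, which are also the CreTW array with the lowest and the Cre array with the highest muscle marker score given below. This call was lost (0 pathway genes called) with the replicate number or the slide row as a block, with the muscle or osteoclast score in the fit, without the filter, in either row alone, and without CreTW array 2, 3 or 4 or Cre array 1, 2 or 4. The muscle form Cox8b was well above background on 4 of 4 CreTW but only 1 of 4 Cre arrays, so no size is given for it (adjusted p = 0.214). Cox8b and Cox7a1 (0.96 ± 0.52, adjusted p = 0.557) did not pass. The widely expressed counterparts of the muscle forms, Cox6a1, Cox7a2 and Cox8a, lay between -0.09 and 0.05. Cox4i1 was at -0.02 ± 0.10 and its other form Cox4i2 at -0.24 ± 0.19.

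**Figure D2:**
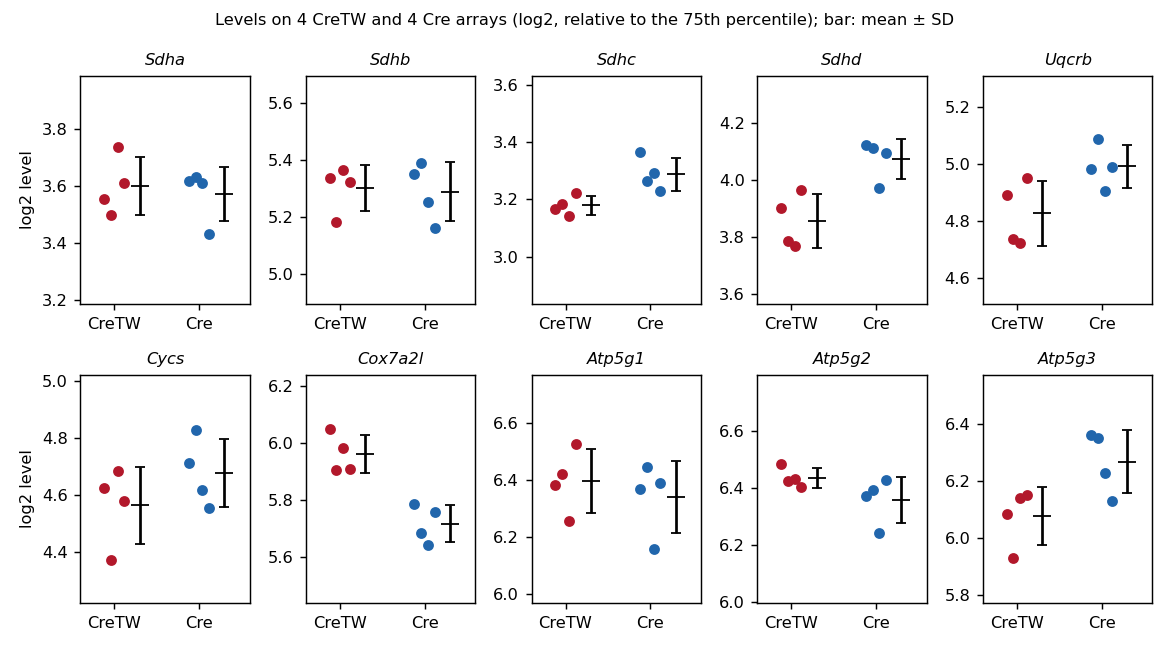
Log2 level of 10 subunit genes (panels, y axis, each panel spanning the same range of log2 units) on 4 CreTW arrays (red, left) and 4 Cre arrays (blue, right), with black bars for mean ± SD. The groups do not overlap for Sdhc, Sdhd and Cox7a2l and overlap for Sdha, Sdhb, Uqcrb, Cycs, Atp5g1, Atp5g2 and Atp5g3.

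The ATP synthase couples a membrane rotor, built from a ring of subunit c, to a catalytic head of alpha and beta subunits. Its 15 measured subunits had 6 positive and 9 negative differences, with a median of -0.01. None was separated by genotype and none had an unadjusted p under 0.05. In the head, the alpha (Atp5a1), beta (Atp5b), gamma (Atp5c1), delta (Atp5d) and epsilon (Atp5e) subunits were at -0.03, -0.02, 0.07, -0.09 and 0.04, with SEs of 0.08 to 0.10. In the peripheral stalk, which holds the head still, Atp5f1, Atp5h, Atp5j and the oligomycin-sensitivity subunit Atp5o were at -0.01, 0.03, -0.02 and -0.01. Atp5h varied least of all members within a genotype (pooled SD 0.0317), and Uqcrfs1 of complex III most. Among the small membrane subunits, Atp5j2, Atp5k and Atp5l were at -0.05, -0.07 and 0.03.

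Subunit c is a special case, since Atp5g1, Atp5g2 and Atp5g3 encode the same mature protein behind different import sequences. Atp5g3 had levels of 6.09, 5.93, 6.14 and 6.15 on CreTW arrays, against 6.36, 6.35, 6.23 and 6.13 on Cre arrays, a difference of -0.19 ± 0.09 (95% interval -0.40 to 0.02, adjusted p = 0.508). The CreTW arrays were lower apart from an overlap with Cre array 4. Atp5g3 differed by -0.35 within slide row 1 and by -0.03 within row 2. Atp5g1 had levels of 6.38, 6.42, 6.26 and 6.53 on CreTW arrays, against 6.37, 6.45, 6.16 and 6.39 on Cre arrays (0.06 ± 0.10, adjusted p = 0.866). Atp5g2 had levels of 6.48, 6.42, 6.43 and 6.40 on CreTW arrays, against 6.37, 6.39, 6.24 and 6.43 on Cre arrays (0.08 ± 0.08, adjusted p = 0.736). The 3 subunit c genes thus gave 1 negative and 2 positive differences, none past the test, and a second Atp5g1 probe was at -0.05.

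Several probes were present for 12 of the 36 genes. The 14 further, dimmer probes ranged from -0.13 to 0.13, and 0 of the 14 were separated by genotype. Of these, 10 had the sign of the probe used and 4 the other sign, in Atp5g1, Sdha, Sdhb and Uqcrb. The median gap between probes of a gene was 0.05, and the widest gap, 0.22, was that of Uqcrb.

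The arrays of a genotype differed in the level of the members as a whole. Each gene was centred on its mean over the 8 arrays. On CreTW array 2 only 6 of 36 genes were above their mean, against 21, 19 and 24 on CreTW arrays 1, 3 and 4. On Cre arrays 1 and 2 the count was 27 and 32 of 36, and on Cre arrays 3 and 4 it was 6 and 15. The median of the centred values was 0.01, -0.09, 0.03 and 0.02 on CreTW arrays 1 to 4, against 0.07, 0.08, -0.09 and -0.01 on Cre arrays 1 to 4. The lowest CreTW array and the lowest Cre array were thus as low as each other, and the ranges of the genotypes overlapped.

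**Figure D3:**
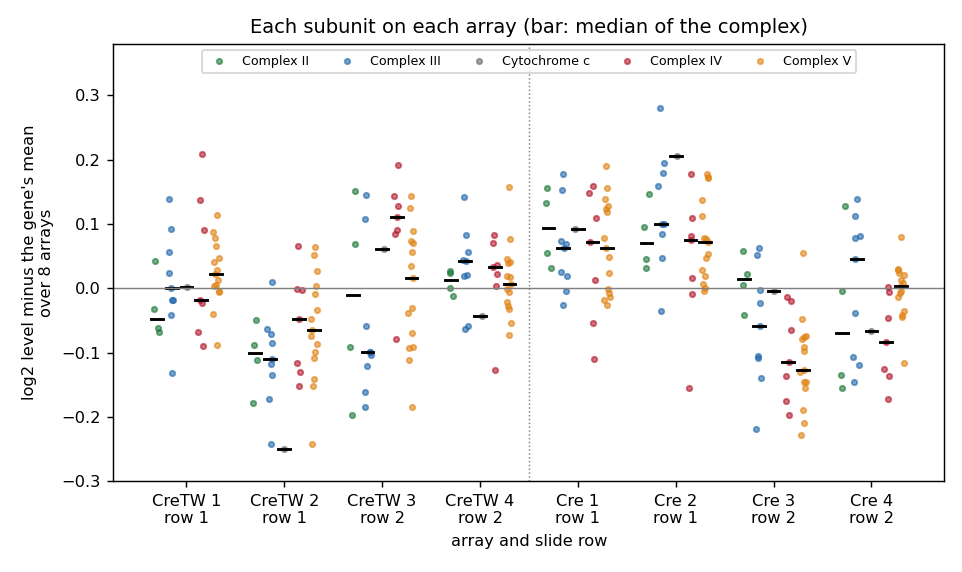
Log2 level of each of the 36 subunit genes minus its own mean over 8 arrays (y axis), on each CreTW array (left) and each Cre array (right) with its slide row, coloured by complex; black bars are the median of a complex. Most points lie below 0 on CreTW array 2 and Cre array 3 and above 0 on Cre arrays 1 and 2.

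One slide held all 8 arrays in 2 rows, with replicates 1 and 2 of both genotypes in row 1 and replicates 3 and 4 in row 2, and the sign of the complex medians followed the row. Within row 1 the medians were -0.13 for complex II, -0.14 for complex III, -0.10 for complex IV and -0.12 for complex V, with 29 of 36 genes lower in CreTW. Within row 2 they were 0.03, 0.04, 0.15 and 0.06, with 28 of 36 genes higher in CreTW. In neither row did a member pass the test (limma on 4 arrays; lowest adjusted p 0.347 and 0.999), and 2 and 0 of 36 members had an unadjusted p under 0.05. Of all features 0 passed in either row, so the lack of a call says little about the members. An unadjusted p under 0.05 was found for 13.7% of all features in row 1 and 5.26% in row 2. The signs of Sdhd (-0.27 and -0.16), Sdhc (-0.14 and -0.08) and Cox7a2l were the same in both rows. Whether the row or the mice on it go with this turn of sign cannot be told apart.

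Markers of other cell types differed between the arrays. The mean centred level of 20 skeletal muscle markers was -1.19 on CreTW array 1 and between 1.996 and 3.37 on the other 3 CreTW arrays. It was 0.35 on Cre array 3 and between -2.99 and -2.15 on the other 3 Cre arrays. Of the 20 markers, 8 were well above background on all arrays and 0 passed the test. Their median difference was 3.99, so 0 past the test does not mean that the genotypes were alike in these markers. Sizes of markers that were dim on Cre arrays are uncertain. The myoglobin gene Mb, a defining marker, was well above background on 3 of 4 CreTW arrays and 1 of 4 Cre arrays. The mean of 10 osteoclast markers lay between -1.25 and 0.31 on CreTW arrays and between -0.54 and 0.75 on Cre arrays, with all 10 well above background on all arrays. Muscle fibres and osteoclasts are both known to be rich in mitochondria, and the part of either in the members' values was not tested. The muscle score was itself mostly higher in CreTW, so a fit with that score cannot tell muscle and genotype apart. The fits with a score are given as a description. With the muscle score in the fit, 26 of 36 differences were positive, 14 signs changed, and 0 members passed (limma, lowest adjusted p 0.838, 1 with an unadjusted p under 0.05). Only 4 of all 23105 features passed in that fit, and 5.68% had an unadjusted p under 0.05. The median of all features was 0.04 in that fit. The median of complex V was then 0.08 and that of complex III 0.03, Sdhd was at -0.10 and Cox7a2l at 0.34, and 35 of 36 intervals lay within a 1.5-fold change. With the osteoclast score in the fit, 23 differences were positive, 0 members passed (limma, lowest adjusted p 0.404, 1 with an unadjusted p under 0.05), Sdhd was at -0.21 and Cox7a2l at 0.24. Of all 23105 features 42 passed with the osteoclast score, and 11.1% had an unadjusted p under 0.05. The mean of 12 perichondrium, tendon and fibroblast markers lay between 0.09 and 0.38 on CreTW arrays and between -0.67 and 0.02 on Cre arrays. The groups of this mean did not overlap. The median difference of the 12 markers was 0.36, with 0 of 12 past the test. The mean of 6 measured erythroid markers of 11 listed lay between -0.96 and 0.39 on CreTW arrays and between -0.36 and 0.65 on Cre arrays, with a median difference of -0.63 and 0 past the test. The part of these cells in the members' values was not tested. Without CreTW array 1, the CreTW array with the lowest muscle score, the differences of the members ran from -0.23 to 0.22.

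**Figure D4:**
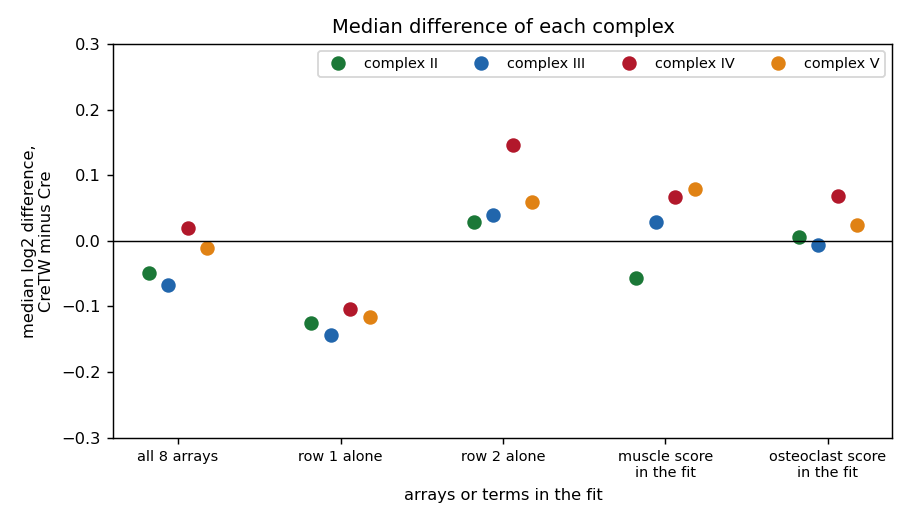
Median log2 difference, CreTW minus Cre (y axis), over the measured genes of complexes II, III, IV and V (4, 9, 7 and 15 genes, coloured as in the legend) for all 8 arrays, for each slide row alone and with the muscle or osteoclast marker score as a term (x axis). All 4 medians are negative in row 1 (-0.14 to -0.10) and positive in row 2 (0.03 to 0.15).

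Genes that build or feed these complexes were looked at by list. Of 84 measured genes on lists of further subunits, assembly factors, electron donors, coenzyme Q synthesis, carriers and uncouplers, 1 passed the test (Cox6a2, with the losses of that call given above), against 0.346% of all features, and 8 were separated by genotype, against 6.70% of all features. Their differences ran from -0.64 to 4.45. In 70 of the 84 the 95% interval lay within a 1.5-fold change. Among assembly factors 0 of 4 for complex II, 0 of 5 for complex III, 0 of 23 for complex IV and 0 of 7 for complex V changed (limma; 1, 0, 1 and 1 with an unadjusted p under 0.05). An unadjusted p under 0.05 was found for 8 of the 84 genes, against 10.7% of all features. The lowest p for complex II belonged to Sdhaf3 (limma, adjusted p = 0.320), well above background on 4 of 4 CreTW but only 1 of 4 Cre arrays. Sdhaf3 thus passed the filter through the CreTW arrays, and no size is given for it. The lowest p of the other 3 lists belonged to Ttc19 (0.22 ± 0.10, adjusted p = 0.508), to the hypoxia-inducible Higd1a (-0.54 ± 0.21, 0.418) and to Atpaf2 (-0.23 ± 0.09, 0.399). Atpaf2 helps assemble the head of the ATP synthase.

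Of the carriers that serve the ATP synthase, 4 of 9 were separated, against 6.70% of all features, a difference that was not tested. None passed the limma test, against 0.346% of all features, and 3 of 9 had an unadjusted p under 0.05, against 10.7%. Vdac3, a pore of the outer membrane, had levels of 4.61, 4.68, 4.69 and 4.61 on CreTW arrays, against 4.41, 4.39, 4.31 and 4.50 on Cre arrays (0.24 ± 0.08, adjusted p = 0.320). All its CreTW values were higher. The adenine nucleotide carrier Slc25a4, named after its values were seen, had levels of 6.90, 6.85, 6.94 and 6.81 on CreTW arrays, against 6.69, 6.67, 6.60 and 6.77 on Cre arrays (0.19 ± 0.08, adjusted p = 0.434). Slc25a4 is known as the form abundant in muscle. Its widely expressed counterpart Slc25a5 was at -0.15 ± 0.14. The mitochondrial creatine kinase Ckmt1 (-0.24 ± 0.10, adjusted p = 0.457) was also separated, lower in CreTW, and was also named after its values were seen.

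The counts of the lists below stand against 0.346% of all features changed and 10.7% with an unadjusted p under 0.05. Electron donors to ubiquinone had 0 of 8 changed (limma, 0 with an unadjusted p under 0.05), with the sulfide oxidoreductase Sqrdl at -0.21 ± 0.11. Coenzyme Q synthesis had 0 of 11 changed (limma, 0 unadjusted), with Coq8a at -0.28 ± 0.23. Genes that attach haem to cytochrome c or import small proteins of the intermembrane space had 0 of 3 changed (limma, 0 unadjusted), with Chchd4 at -0.09 ± 0.14. Uncoupling proteins and their relatives had 0 of 4 changed (limma, 0 unadjusted), with Ucp3 at -0.64 ± 0.34 and Ucp2 at -0.63 ± 0.39. Ucp1, the uncoupler of brown fat, was not above the filter.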

How the data were processed

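Per the labels, RNA was hybridised to 1-colour Agilent 8x60K arrays. The intensity values were deposited by the authors as Agilent Feature Extraction 11.5.1.1 output, per the file headers, with background subtracted from each spot. The flags (other values, 0 or 1 per spot) come from the same deposited files. The deposited log2 table of the authors, made with GeneSpring 14.9 per the labels, matched the log2 intensity of every array up to 1 shift for each (r = 1), though single probes departed from it by as much as 0.487 (column medians -3.03 to -2.93, genes not centred).

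Intensities of a probe's spots were averaged without outlier spots, put on the log2 scale and set relative to the 75th percentile of their own array. Probes were named by RefSeq transcript through a table of another assembly (GRCm38.p6): 32994 of 56605 had 1 symbol, 0 several and 23611 none. The brightest probe stood for a gene, which left 23105 features. Genotypes were compared with limma 3.58.1 (R 4.3.3, lmFit and eBayes, threshold 0.05), with 6 residual degrees of freedom. The script was tested on simulated data. With 4 arrays per genotype, their number limits the precision.

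The members and all gene lists were chosen with earlier results of these data known. Values on every array were given for the largest rise and fall of each complex, any member with an unadjusted p under 0.05 or separated genotypes, Cycs and the 3 subunit c genes. Of each other list, genes past the test were named, or the one with the lowest p. Genes of those lists named beyond this, such as Cox4i1, Ucp2 and Slc25a5, were chosen after their values were seen. Alternatives were other scalings, backgrounds, filters and probe rules, the authors' table, replicate number or slide row as a block, each row alone, marker scores as covariates, and each array left out. The mean spot signal was not used here, so normexp (offset 50) ran on the median signal. One gene of the carrier list is not reported here by name.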

Additional observations from a re-analysis of the deposited data

Results flagged for a closer look

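In 4 of 72 sets of 4 arrays, 1 array stood apart from the other 3 by most of the range of the set, which chance gives in about 1 of 20 sets. Sdha was lowest on Cre array 4 (3.43, the others 3.61 to 3.63). Atp5c1 was lowest on CreTW array 2 (5.82, the others 5.94 to 5.96), the array on which 30 of 36 members lay below their mean. Atp5e was lowest on CreTW array 3 (6.68, the others 6.82 to 6.84), and Atp5j was highest on the same array (4.87, the others 4.75 to 4.76).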

How the results depend on the processing

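Under all 23 alternatives 0 members passed the test, and all 36 intervals lay within a 1.5-fold change except with row 1 alone (29), row 2 alone (31) and the muscle score (35), where fewer arrays or an added term widen them. The signs of Sdhc, Sdhd, Uqcrb, Cox7a2l, Atp5g2 and Atp5g3 held in all 23. Members with separated genotypes numbered 25 in row 1 and 14 in row 2, where 48.5% and 32.4% of all features were separated. Without single arrays they numbered 3 to 7. There were 7 without Cre replicate 3 and 5 without Cre replicate 4, where 10.1% and 15.6% of all features were separated. Medians of complexes II, III, IV and V were -0.13, -0.14, -0.10 and -0.12 in row 1. In row 2 those of complexes II, III and IV were 0.0284, 0.0389 and 0.146, and with the muscle score those of complexes III and V were 0.0292 and 0.0792. Small differences changed sign: Sdha with the mean of probes (-0.0493), in row 1 (-0.10), with array weights (-0.0021) and with the muscle score (-0.0088), Uqcrq with quantile normalization (-0.0254) and in row 1 (-0.0031), Atp5g1 in row 1 (-0.0058), and Cycs and Cox5a in row 2 (0.0452 and 0.136) and with the osteoclast score (0.0060 and 0.0625). Without single arrays Sdha ranged from -0.0197 to 0.0614, Uqcrq from -0.0345 to 0.0719 and Atp5g1 from -0.0048 to 0.102. Over all features 80 changed, 27 without the filter, 53 with the row as a block, 0 in either row, 127 with array weights, 4 with the muscle score, 42 with the osteoclast score and 42 to 75 without single arrays. The call of Cox6a2 among the pathway genes was lost (0 called) without the filter, with the filter on all 8 arrays (which removed it), with the replicate number or the row as a block, in either row, with either score and without CreTW replicates 2, 3 and 4 and Cre replicates 1, 2 and 4, and kept otherwise (0 to 1 without single arrays). The labels do not say whether the replicate numbers pair the mice. Correlations of deviations were -0.10 to 0.31 for same-numbered arrays, highest for replicate 3 (mean -0.06 with other numbers), and cannot settle it with 4 arrays per genotype. With the replicate block 12 features, 0 members and 0 pathway genes changed. The cause of these changes was not tested. All member probes were well above background.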
